A study of Rattus norvegicus with 6 samples.

Results

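The genes described here encode potassium channels (symbols that begin with Kcn), sodium channels (Scn), calcium channels (Cacn) and subunits of GABA-A receptors (Gabr). Every probe set annotated to 1 gene with such a symbol was taken, which gave 148 probe sets of 96 genes out of 8799 probe sets on the array. There were 82 probe sets of 54 Kcn genes, 20 of 13 Scn genes, 26 of 14 Cacn genes and 20 of 15 Gabr genes. RNA came from the dorsolateral prostate of male ACI rats, an inbred strain, labelled 18 months old. They had been fed high corn oil or low corn oil for 18 months, with 3 rats and 1 array each, and no genetic change or other agent is named in the labels. The free-text description of high corn oil replicate 3 names the low diet, while its title names the high one, which was used. The symbol rule takes in more than channels gated by voltage: inward rectifier (Kcnj) and tandem-pore (Kcnk) potassium channels and the epithelial sodium channel (Scnn1) open without a voltage sensor, and GABA-A receptors are chloride channels opened by the transmitter GABA.

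Voltage-gated channels open when the membrane depolarizes and carry the currents of action potentials and of muscle contraction. Pore-forming alpha subunits set the ion, and auxiliary subunits set the gating and the number of channels at the surface. Inward rectifier and tandem-pore potassium channels hold the resting potential of many cells. The epithelial sodium channel takes up sodium across the apical face of epithelia. The prostate holds secretory and basal epithelium, smooth muscle, vessels and autonomic nerve fibres, each with its own set of channels. In RNA from a whole lobe, fewer cells of a type and less RNA per cell cannot be told apart.

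The promoters of 4 genes are shown because their probe sets had the smallest p-values of the channel genes in the diet comparison below. Each run is the 250 bases before the annotated start in RefSeq on GRCr8, read 5' to 3' on the strand of the gene. Kcnmb1 lies at chr10:19061849-19062098 on the plus strand, Gabra5 at chr1:117516607-117516856, Kcnc4 at chr2:197788434-197788683 and Scn4a at chr10:91796325-91796574, the last 3 on the minus strand. Capitals mark matches, on either strand, to TATAAA, to the GC box GGGCGG, to the E-box CAGCTG and to the CArG box of smooth muscle genes.
Kcnmb1: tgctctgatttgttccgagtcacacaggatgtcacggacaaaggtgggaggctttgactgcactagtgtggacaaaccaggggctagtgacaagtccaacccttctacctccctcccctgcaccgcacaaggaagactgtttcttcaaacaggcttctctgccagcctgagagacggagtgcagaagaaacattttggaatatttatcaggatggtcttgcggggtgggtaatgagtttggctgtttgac
Gabra5: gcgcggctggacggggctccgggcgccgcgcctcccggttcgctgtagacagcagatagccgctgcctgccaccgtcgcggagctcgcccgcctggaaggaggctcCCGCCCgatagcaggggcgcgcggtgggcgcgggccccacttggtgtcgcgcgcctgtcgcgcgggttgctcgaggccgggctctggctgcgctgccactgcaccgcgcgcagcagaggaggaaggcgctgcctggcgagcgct
Kcnc4: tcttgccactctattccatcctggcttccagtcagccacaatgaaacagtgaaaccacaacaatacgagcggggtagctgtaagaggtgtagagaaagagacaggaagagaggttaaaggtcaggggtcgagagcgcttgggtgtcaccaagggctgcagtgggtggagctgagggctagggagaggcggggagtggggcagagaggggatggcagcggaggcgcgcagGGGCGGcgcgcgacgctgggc
Scn4a: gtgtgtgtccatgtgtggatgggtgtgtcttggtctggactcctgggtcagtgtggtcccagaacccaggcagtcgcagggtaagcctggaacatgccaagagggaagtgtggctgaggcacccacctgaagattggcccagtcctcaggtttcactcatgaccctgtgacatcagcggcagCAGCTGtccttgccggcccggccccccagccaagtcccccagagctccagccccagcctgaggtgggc
These promoters differed widely in base composition. That of Gabra5, a GABA-A alpha subunit gene, was 76.4% G and C with 37 CpG sites and 1 GC box. Kcnc4, of a fast potassium channel, was at 60.8% with 13 CpG sites and 1 GC box. Scn4a, of the skeletal muscle sodium channel, was at 62.8% with 4 CpG sites and 1 E-box. Kcnmb1, of the beta subunit of the smooth muscle BK channel, was at 50.8% with 5 CpG sites and no match. Of the 96 genes 73 were found in the promoter table. The GC box was in 47.9% of those 73 promoters and 32.4% of all 27457, the E-box in 19.2% and 11.9%, TATAAA in 6.85% and 13.1%, and the CArG box in 0 and 1.50%. The members came from genes on the array, which make a nearer background, one not computed for the E-box or the CArG box. Over the full 300-base windows the GC box was in 49.3% of members and 56.2% of 3879 array genes, and TATAAA in 6.85% and 11.3%. The median ratio of observed to expected CpG sites in those windows was 0.577 for the members, 0.691 for the array genes and 0.417 for all promoters. By family it was 0.928 for Cacn, 0.604 for Gabr, 0.602 for Kcn and 0.383 for Scn genes. It was 0.602 for the 44 genes with a probe set above 0 on all arrays and 0.566 for the 29 without.

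Across the 6 arrays, the largest share of values at or below 0 was 23.1%, and the smallest 18.5%. Among the channel probe sets it was 31.8% to 37.8% per array. High corn oil replicates 2 and 3 stood apart from the other arrays: Pbsn, the secretory protein probasin of the rat prostate, was at 19851 and 21926 there, against 99574 in replicate 1 of that diet and 78113 to 82039 on the low corn oil arrays. Signal of the bacterial spike-in controls, added to each hybridization in set amounts, had means of 19603 to 25061 on replicate 1 of high corn oil and replicates 1 and 2 of low corn oil, and of 8471 to 12251 on the other 3 arrays. Msmb, another secretory gene of the prostate, was at 33652 to 80234. Of 8 smooth muscle markers found on the array 8 were above 0 on all arrays, of 11 skeletal muscle markers 9, and of 14 neuron markers 8. Of 4 neuroendocrine markers 1, Scg5, was above 0 on all arrays, and of 5 Schwann cell markers 3 were, Mag, Prx and Mbp. Chgb of the first list and Sox10 of the second were at or below 0 on all arrays. Summed intensities of markers count values below 0 as 0. For 5 Schwann cell markers the sums were 2549 to 6393 with high and 2073 to 2543 with low corn oil. The largest was on high corn oil replicate 2, where S100b was at 2282, against 45.0 and -462 on replicates 1 and 3. No tested Schwann cell marker had separate groups. For 2 basal epithelial markers the sums were 12862 to 14104 with high and 11031 to 11927 with low corn oil. Among the cell type lists the sums were separate only in these 2, by a small gap for Schwann cell markers. They overlapped for secretory epithelium, endothelium, leukocyte, seminal vesicle, muscle, neuron and neuroendocrine markers.

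Channel probe sets were dim. On all 6 arrays 70 of the 148 (47.3%) were above 0, against 65.9% of all 8740 probe sets that are not controls, and 28 (18.9%) were at or below 0 on every array, against 9.21%. How values below 0 arose is not given in the sources used here, and a value above 0 is not a detection call. The median over the 148 of their mean intensity was 173, against 645 for all probe sets, and 32 (21.6%) had a mean above the median probe set. Of the 96 genes 57 had at least 1 probe set above 0 on all arrays. For 11 genes every probe set was at or below 0 on every array: the potassium channel genes Kcna3, Kcnab1, Kcnj6, Kcnj9, Kcnk3, Kcnq1, Kcns1 and Kcnt1, the skeletal muscle calcium channel gene Cacna1s, and the GABA-A receptor genes Gabrb1 and Gabrr2. Just above the line were probe sets of Kcne1 and Kcnh6, with lowest values of 15.1 and 21.2. Just below it were probe sets of Kcna2 and Kcnc2, at -4.8 and -5.5 on 1 array.

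The families differed in how many probe sets were above 0. It was 14 of 20 for Scn (70.0%), 12 of 20 for Gabr, 14 of 26 for Cacn (53.8%) and 30 of 82 for Kcn (36.6%). This difference in count is a description and was not tested.

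**Figure D1:**
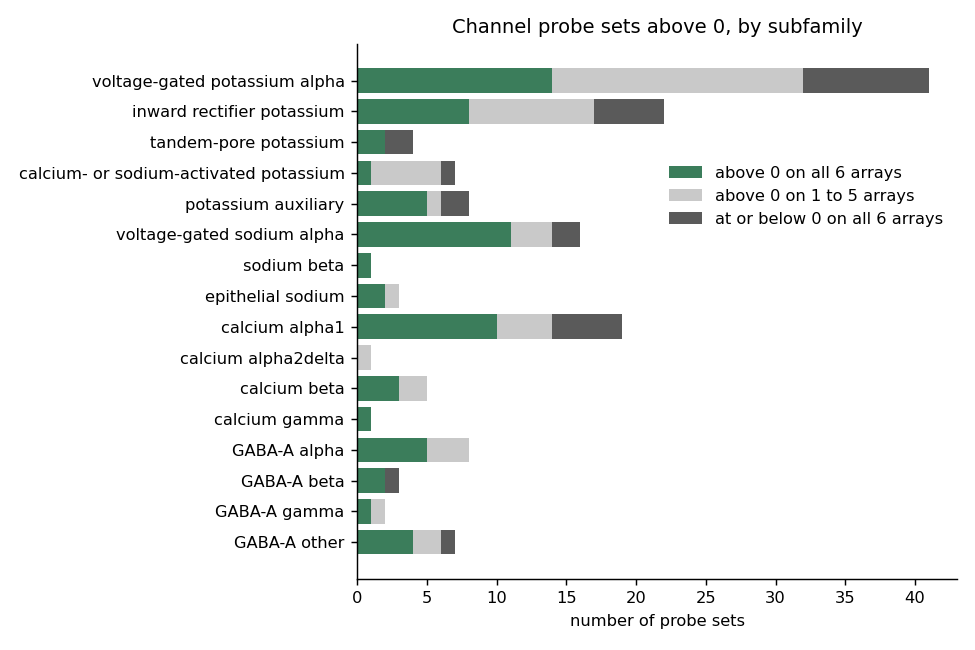
Number of probe sets (x axis) in each channel subfamily (y axis), split by whether the deposited intensity was above 0 on all 6 arrays, on some or on none. Of 41 probe sets for voltage-gated potassium alpha subunits 14 were above 0 on all arrays, and of 16 for voltage-gated sodium alpha subunits 11.

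Of the genes grouped by symbol as voltage-gated potassium alpha subunits, 14 had a probe set above 0 on all arrays: Kcna4, Kcna6, Kcnc1, Kcnc4, Kcnq3, Kcns3 and all of Kcnh1 to Kcnh8, the ether-a-go-go group. No probe set of Kcnb2, Kcnd2 or Kcnd3 was. Of the inward rectifiers, Kcnj1, Kcnj4, Kcnj8, Kcnj10, Kcnj13 and Kcnj16 had a probe set above 0 throughout. Kcnj11, the pore of the ATP-sensitive channel of beta cells and muscle, had none. Kcnj8, the pore of the vascular ATP-sensitive channel, was at 132, 442 and 248 with high corn oil against 214, 249 and 145 with low corn oil. Its values overlapped between diets, and it was too dim for the test.

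The tandem-pore gene Kcnk1 (TWIK-1), a leak channel of many epithelia, had a mean intensity above that of 92.3% of all probe sets. It was at 13289, 11895 and 10177 with high corn oil against 10915, 7296 and 12336 with low corn oil, so the diets overlapped. Kcnk5, a leak channel sensitive to acid, was at 851 to 1548 on all arrays, while both probe sets of Kcnk3 were below 0. The BK channel, a potassium channel opened by calcium and voltage, gave a split picture: both probe sets of its smooth muscle beta subunit Kcnmb1 were above 0 throughout, and none of 4 for its pore, Kcnma1, was. Kcnab2, a cytoplasmic beta subunit, was above 0 on all arrays with both probe sets. So was the only probe set of Kcnn1, of the potassium channels opened by calcium. Intensities of different probe sets are not on a common scale of abundance, since probes bind with different strength.

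Of the voltage-gated sodium alpha subunits, Scn1a, Scn3a, Scn4a, Scn7a, Scn8a, Scn9a and Scn11a had a probe set above 0 throughout, and Scn2a and Scn10a did not. The neighbours Scn1a, Scn9a and Scn7a, which lie together on chromosome 3, had 5 of 5 probe sets above 0. Scn7a, the sodium-sensing Nax channel of glia and other non-neuronal cells, was at 1384, 2333 and 2600 against 1756, 1481 and 1608. The sodium channel beta subunit gene Scn2b was also above 0 throughout, at 90.1, 279 and 600 against 53.0, 76.2 and 127. The epithelial sodium channel subunits Scnn1a and Scnn1b were above 0 on every array. The third subunit, Scnn1g, was below 0 on 1 array of each diet.

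Of the calcium channel pores, Cacna1a, Cacna1b, Cacna1c, Cacna1d, Cacna1e, Cacna1g and Cacna1h had a probe set above 0 throughout. Cacna1c, the L-type channel of smooth and heart muscle, was at 1027, 1995 and 1499 against 1538, 782 and 1338. Cacng1, the gamma subunit of the skeletal muscle L-type channel, was at 1170, 1186 and 1861 against 1206, 951 and 1724, although both probe sets of its pore, Cacna1s, were below 0 on all arrays. Cacnb2, Cacnb3 and Cacnb4, cytoplasmic beta subunits, were above 0 with 1 probe set each. Of the GABA-A subunits, the alpha genes Gabra2, Gabra3, Gabra5 and Gabra6 had a probe set above 0 throughout. So did Gabrg1, Gabrd, Gabre, Gabrp and the retinal rho subunit Gabrr1, and Gabrb2 with both of its probe sets. Gabrr1 was at 1315, 1582 and 1316 against 1167, 1150 and 1390. Gabrd, of receptors outside synapses, was at 916, 1170 and 867 against 980, 634 and 889. Both sets of values overlapped between diets.

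Probe sets of 1 gene often disagreed. Of 38 channel genes with more than 1 probe set, 20 (52.6%) had some above 0 on all arrays and others not, against 36.8% of 1565 named genes with several probe sets. In 11 of the 38 (28.9%) 1 probe set was above 0 and another at or below 0 on every array, against 11.1%. Kcnh2, the HERG channel, averaged 1369 with one probe set and -1064 with the other, and Kcnh3 averaged 5071 and -295. The Kcnh3 probe set with the larger value, AJ007627_at, was at 3255, 6871 and 5124 with high corn oil against 5480, 4768 and 4929 with low corn oil. For these genes a value above 0 holds for a probe set and not for the gene.

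**Figure D2:**
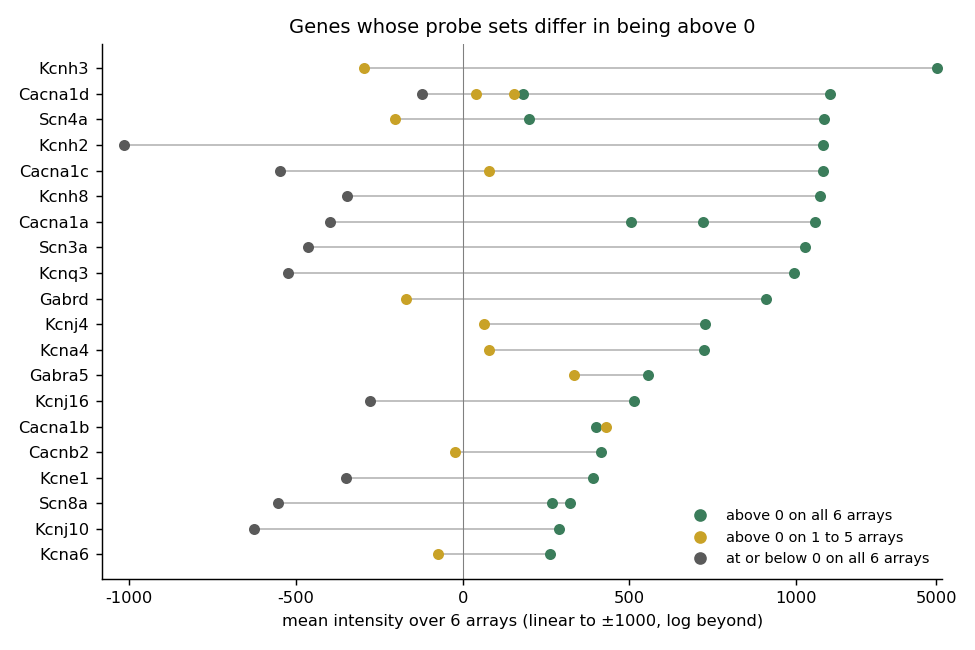
Mean intensity over 6 arrays (x axis, linear around 0 and logarithmic beyond, as marked) of every probe set of the 20 channel genes (y axis) whose probe sets differ in being above 0 on all arrays. Kcnh2 has a probe set at 1369 and another at -1064.

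The comparison of diets asks whether long feeding of corn oil goes with other channel transcripts in the prostate. No channel probe set passed it. In limma's test, 45 of the 148 probe sets, of 38 genes, were bright enough to be tested (mean intensity of at least 343), and 0 passed a Benjamini-Hochberg adjusted p of 0.05, where over all 5244 tested probe sets 0% passed. Without the filter on intensity 0.103% of 8740 passed, none of them a channel probe set. At an unadjusted p under 0.05 there were 7 of the 45, 6 higher and 1 lower under the high diet, against a background of 9.95% (5.15% higher and 4.81% lower). The 3 values of one diet lay wholly outside the 3 of the other in 6 of the 45, 5 higher and 1 lower, against 15.5% of all tested probe sets (8.83% higher and 6.71% lower). Among both the 7 and the 6, Gabra5 X51992_at and Kcnc4 passed the filter only through their high corn oil mean. Cacna1b M92905_s_at passed only through its low corn oil mean, so the filter fixed the direction of all of these. Differences are given as log2(intensity + 156.1), high minus low, with their SE, and this scale understates the change of dim probe sets.

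Kcnmb1 and Gabra5 had the smallest unadjusted p-values, and neither passed. Kcnmb1 probe set AB010963_s_at was at 1431, 2571 and 1326 with high corn oil against 674, 458 and 467 with low corn oil. All high corn oil values lay above all low ones, with means of 1776 ± 690 and 533 ± 122 (SD, n = 3) and a difference of 1.45 ± 0.30 (limma adjusted p = 0.462). The other Kcnmb1 probe set, AF020712_at, was at 1241, 2621 and 2942 against 2263, 2016 and 1883. Its diets overlapped, the difference was 0.06 ± 0.31, and the direction turned under several settings, so the probe sets of this gene gave different answers. Kcnmb1 is best known in smooth muscle. Of 8 tested smooth muscle markers 1 was higher and 7 lower under the high diet, where 53.9% of all tested probe sets were higher. Their median was -0.30, with summed intensities of 133907 to 169279 against 163060 to 201446. Actg2 and Myl9 were separate and lower, where 6.71% of all tested probe sets were. The part of smooth muscle in the Kcnmb1 values was not tested.

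Gabra5 probe set X51992_at was at 533, 1193 and 1134 with high corn oil against 95.5, 102 and 285 with low corn oil. The groups did not overlap, with means of 953 ± 365 and 161 ± 107 (SD, n = 3) and a difference of 1.80 ± 0.40 (limma adjusted p = 0.462). The second Gabra5 probe set, L08494cds_s_at, was at 245, 784 and 517 against 222, -48.7 and 280. It was too dim for the test and its diets overlapped, with low corn oil replicate 3 above high corn oil replicate 1. Gabrg3, the neighbour of Gabra5 on chromosome 1, was at 277, 453 and 16.3 against 134, 45.2 and -12.6, also with overlap.

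The other members with separate groups were a potassium, a sodium and a pair of calcium channel genes. Kcnc4 (Kv3.4), of fast-inactivating channels, was at 785, 819 and 845 with high corn oil against 255, 116 and 408 with low corn oil, a difference of 1.29 ± 0.34 (limma adjusted p = 0.462). The high corn oil values of this gene were close together and the low ones spread. Scn4a probe set M26643_g_at was at 1457, 2083 and 1948 against 728, 850 and 1204, with a difference of 0.88 ± 0.24 (limma adjusted p = 0.462). A further Scn4a probe set made from the same sequence entry, M26643_at, was at 171, 435 and 235 against 132, 83.9 and 135, and its groups did not overlap either. The last, D87922exon_at, was at -159, -246 and -865 against -26.7, -8.9 and 82.3, so its groups were separate in the opposite direction, with 5 of 6 values below 0. Markers of skeletal muscle, the tissue in which Scn4a is the main sodium channel, were lower in 8 of 9 tested, and 0 had separate groups. Over all tested probe sets 53.9% were higher. The markers had a median of -0.30 and summed intensities of 18873 to 43693 against 29955 to 38105.

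Cacna1d, an L-type calcium channel that opens at low voltage, was at 1696, 1614 and 1795 on probe set D38101_s_at with high corn oil, against 827, 1432 and 1528 with low corn oil. The gap between groups was small and the difference 0.43 ± 0.25 (limma adjusted p = 0.536), which was 0.18 without low corn oil replicate 1. Cacna1b, the N-type calcium channel of nerve endings, was the 1 tested member whose separate group lay lower: probe set M92905_s_at was at 381, 118 and -42.9 against 715, 645 and 759, a difference of -1.60 ± 0.48 (limma adjusted p = 0.462). Its size moved with the pseudocount, to -2.44 and -0.78 for a smaller and a larger one, and was -0.55 when replicate 3 of high corn oil was placed in the other diet. The other Cacna1b probe set, AF055477_at, was at 24.5, 801 and 763 against 302, 167 and 345, a difference of 0.37 ± 0.67 in the opposite direction. Neuron markers, of cells that carry N-type channels, went both ways. Of 14 on the array 4 were tested and 3 of those were lower, with summed intensities of all 14 at 4397 to 8348 against 4969 to 8378. Nefl was separate and lower, at 332, 470 and 449 against 1004, 496 and 516. Nefh, too dim for the test, was separate and higher, at 267, 585 and 508 against 134, 56.3 and 237. Vip, at 139, 28.1 and 188 against -15.7, 12.2 and -9.70, was also separate and higher. The part of these cell types in the results was not tested.

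**Figure D3:**
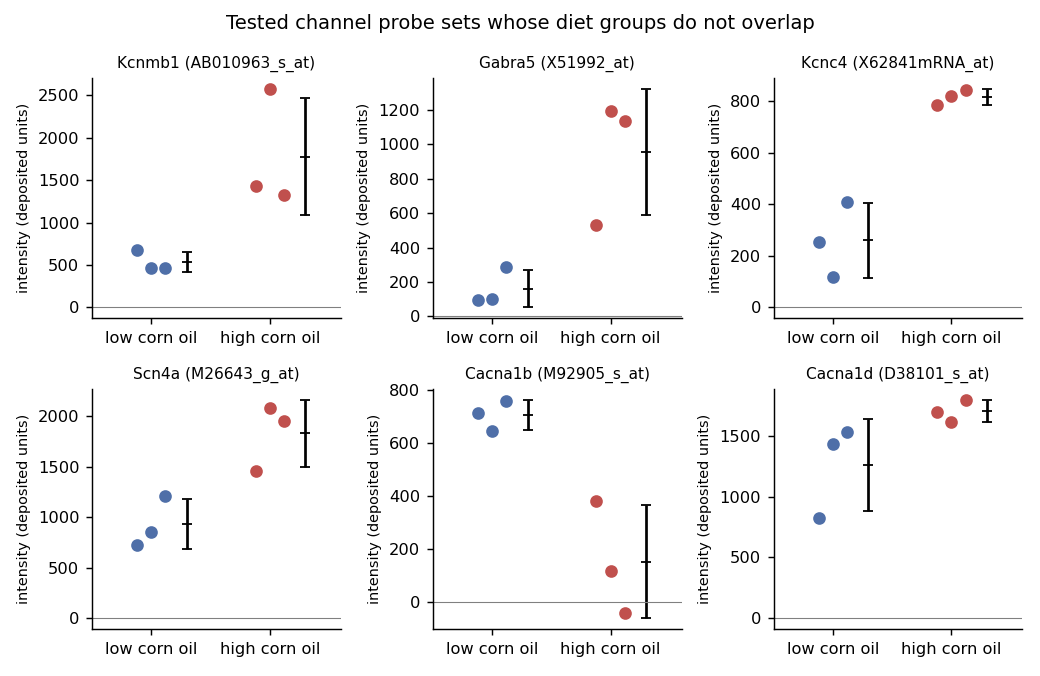
Deposited intensity (y axis) of the 6 tested probe sets whose diet groups do not overlap, on 3 low (blue) and 3 high (red) corn oil arrays, with mean and SD in black. Kcnmb1, Gabra5, Kcnc4, Scn4a and Cacna1d lie higher and Cacna1b lower under the high diet, and 1 high corn oil value of Cacna1b is at -42.9.

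Other members had differences above 0 with groups that overlapped, and none passed the test. The epithelial sodium channel gene Scnn1a was at 2382, 4843 and 8927 with high corn oil against 2487, 1995 and 2190 with low corn oil. High corn oil replicate 1 lay within the low corn oil range, and the difference of 1.04 ± 0.42 (limma adjusted p = 0.494) ran from 0.59 without high corn oil replicate 3 to 1.51 without replicate 1. It was 0.10 when replicate 3 was placed in the low corn oil group, as its description has it. Scnn1b, its partner subunit, went the other way among the high corn oil arrays, at 3323, 1339 and 1554 against 2293, 1552 and 1081. Its largest value was in replicate 1, where Scnn1a was lowest for that diet. Scn3a probe set Y00766_g_at was at 983, 1887 and 1650 against 393, 640 and 1101, a difference of 0.98 ± 0.37 with overlap of 1 array. The other Scn3a probe set, Y00766_at, was below 0 on all arrays. Kcnj4, an inward rectifier, was at 453, 1595 and 993 against 508, 352 and 462 on probe set X83580cds_s_at, a difference of 0.85 ± 0.41. The other Kcnj4 probe set, X87635_at, was too dim for the test, at -9.8, 116 and 382 against -96.4, 15.3 and -21.1. Cacna1h, a T-type calcium channel, was at 665, 1650 and 701 against 860, 588 and 189, a difference of 0.76 ± 0.49. Gabra2 was at 430, 1903 and 1353 against 516, 556 and 936, a difference of 0.60 ± 0.48, and Gabrg1 at 316, 701 and 892 against 284, 399 and 407, at 0.54 ± 0.37. With 1 array left out the differences ran from 0.22 to 1.13 for Gabra2, 0.30 to 0.88 for Gabrg1, 0.50 to 1.26 for Kcnj4 and 0.32 to 1.10 for Cacna1h. The ends of these ranges came without high corn oil replicate 1, 2 or 3 or, for Cacna1h, low corn oil replicate 1 or 3. With replicate 3 placed in the low group Gabrg1 was at 0.05 and Gabra2 at 0.22. In Kcnj4 and Gabra2 high corn oil replicates 2 and 3 lay above every other array and replicate 1 did not.

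The remaining tested potassium channel genes overlapped between diets. Kcnh8, of the ether-a-go-go group, was at 538, 3173 and 2023 against 420, 361 and 1338, a difference of 1.17 ± 0.64. The high corn oil values of Kcnh8 spread nearly as far as both diets together. The other Kcnh8 probe set, AF061957_at, was below 0 on all arrays. Kcnh7, of the same group, was at 592, 340 and 961 against 226, 388 and 290, at 0.72 ± 0.38. Kcnj1 (ROMK), the potassium secretion channel of kidney tubules, had 2 tested probe sets, both at 0.49, with SEs of 0.44 and 0.39. The beta subunit Kcnab2 was at 542, 1344 and 1002 against 348, 873 and 471 with one probe set and 823, 1351 and 1452 against 1002, 908 and 1094 with the other, differences of 0.63 ± 0.39 and 0.21 ± 0.25. Kcne1, the accessory subunit of the slow delayed rectifier, was at 15.1, 700.0 and 740.0 against 358, 270.0 and 269. High corn oil replicate 1 thus lay below all low corn oil arrays and the other high ones above them. The other Kcne1 probe set, M22412_at, was below 0 on all arrays. Kcna4, Kcnh2, Kcnh4, Kcnk5 and Kcnq3 lay between 0.11 and 0.27, and Kcnj16 at -0.24 ± 0.43.

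The remaining sodium and calcium channel genes were closer to 0. Scn1a, a neuronal sodium channel, was at 711, 461 and 334 against 235, 708 and 989, a difference of -0.19 ± 0.46, and the second Scn7a probe set at -0.22 ± 0.29, opposed in sign to the first. The 3 probe sets of Cacna1a, the P/Q-type channel of nerve endings, gave 0.26 ± 0.33, 0.14 ± 0.35 and 0.13 ± 0.22. Cacna1g, a T-type channel, was at 268, 772 and 522 with high corn oil and at 424 or less with low corn oil, at 0.46 ± 0.38. Cacna1e, the R-type channel, was at -0.09 ± 0.40, and the beta subunits Cacnb2 and Cacnb3 at -0.12 ± 0.30 and 0.03 ± 0.31. Gabra6, the alpha subunit of cerebellar granule cells, was at 326, 352 and 635 against 286, 401 and 505, a difference of 0.08 ± 0.34. All of these overlapped between diets.

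Most tested members had a difference above 0, a count that holds only for those bright enough to be tested. Of Kcn probe sets 17 of 19 were above 0, with a median of 0.23, and of Scn 5 of 7, with 0.31. Of Cacn 10 of 13 were above 0, with 0.14, and of Gabr 6 of 6, with 0.38. Together 38 of 45 were above 0, with a median of 0.26, against 53.9% and 0.03 over all tested probe sets and 55.1% and 0.05 over the 3269 with a mean intensity of 416 to 3475, the range of the middle 90% of tested members. Over the subfamilies the medians were 0.24 for voltage-gated potassium alpha subunits (8 probe sets), 0.49 for inward rectifiers (4), 0.31 for voltage-gated sodium alpha subunits (5), 0.27 for calcium alpha1 subunits (10) and 0.60 for GABA-A alpha subunits (3). The filter itself bears on these counts. Gabra5 X51992_at, Kcnc4, Kcnh7, Kcne1, Cacna1g and Cacna1b AF055477_at passed it only through the high corn oil arrays, with a low corn oil mean under 343, and so had to lie higher, and Cacna1b M92905_s_at passed only through the low ones. Such probe sets were 13.3% and 2.22% of the tested members, against 4.18% and 2.67% of all tested. Of the 38 members with both means at or above 343, 32 were above 0, with a median of 0.22, against 53.4% and 0.03. With no filter 85 of all 148 were above 0 and 28 exactly at 0, being at or below 0 on every array, with a median of 0.12, against 48.2% and 0.00 over all probe sets, and Kcn was at 42 of 82 with a median of 0.02.

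**Figure D4:**
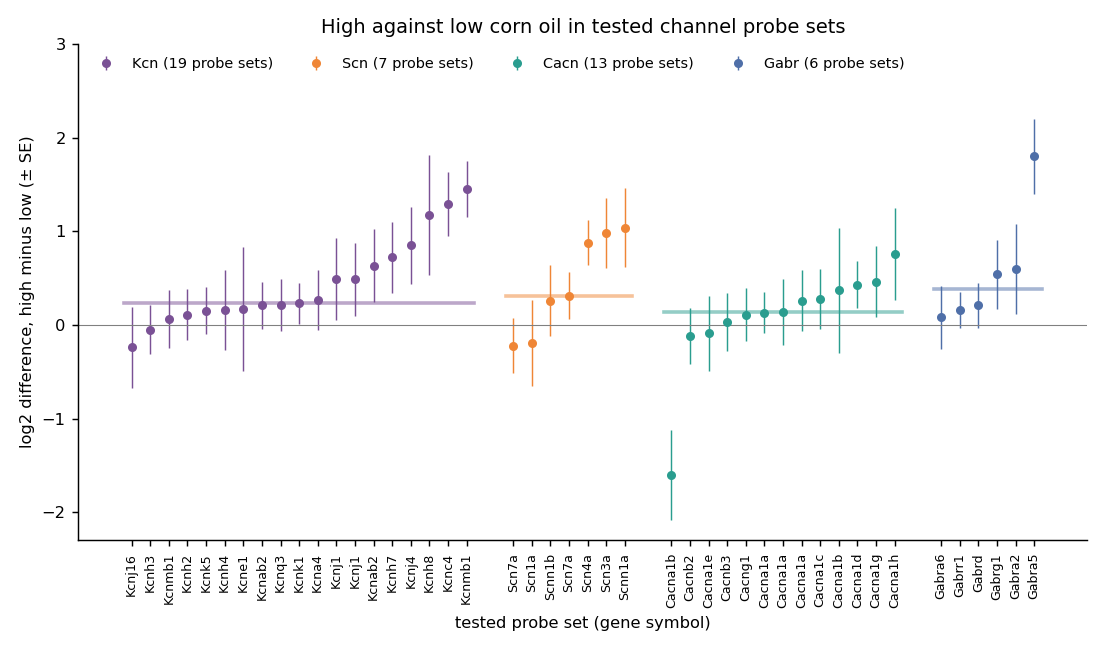
Log2 difference, high minus low corn oil, with its SE (y axis) for each of the 45 tested probe sets (x axis, by gene symbol), coloured by family, with the family median as a horizontal line. Medians lie at 0.23 for Kcn, 0.31 for Scn, 0.14 for Cacn and 0.38 for Gabr, and Cacna1b at -1.60 lies farthest below 0.

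The count above 0 was not alike in arrays of unlike spike-in signal, a difference that was not tested. Of the arrays, 3 had the higher spike-in signal, and there high corn oil replicate 1 was above the mean of low corn oil replicates 1 and 2 in 20 of 45 members, with a median of -0.04. On the other 3 the mean of high corn oil replicates 2 and 3 was above low corn oil replicate 3 in 33 of 45, with a median of 0.37. Over all tested probe sets the shares were 52.4% and 50.7%. The Kcn median was -0.04 and 0.37 in these groups, Cacn -0.08 and 0.14, Gabr 0.06 and 0.42 and Scn 0.58 and 0.57. High corn oil replicates 2 and 3 are the arrays with low Pbsn, and the part of either measure in the family differences was not tested. Gabra5 was at 1.44 and 1.58 in the 2 groups of arrays, Kcnmb1 AB010963_s_at at 1.15 and 1.69, Kcnc4 at 1.49 and 0.81 and Scn4a M26643_g_at at 0.77 and 0.67. Scnn1a was at 0.09 and 1.52. A limma fit blocked on spike-in group gave medians of 0.07 for Kcn, 0.57 for Scn, 0.12 for Cacn and 0.20 for Gabr.

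**Figure D5:**
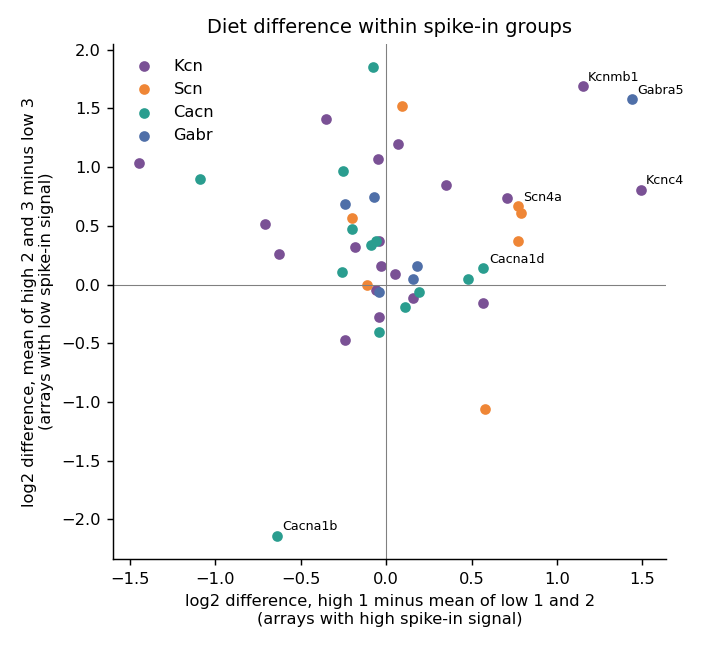
Log2 difference between diets within the 3 arrays of high spike-in signal (x axis) and within the 3 of low spike-in signal (y axis) for the 45 tested probe sets, coloured by family, with the 6 probe sets whose groups do not overlap named. Gabra5 lies at 1.44 and 1.58, while 33 of 45 probe sets are above 0 on the y axis and 20 on the x axis.

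Without high corn oil replicate 1 limma called 3 members: Gabra5 X51992_at (2.11, adjusted p = 0.0428), Scnn1a (1.51, adjusted p = 0.0431) and Cacna1b M92905_s_at (-2.06, adjusted p = 0.0439). That is 6.67% of the 45, against 4.08% of all tested probe sets. Gabra5 X51992_at and Cacna1b M92905_s_at had each passed the intensity filter only through the diet in which it was higher. Both remaining high corn oil arrays are among the 3 of weaker spike-in signal, as is 1 of the 3 low corn oil arrays, so much of diet and spike-in level cannot be told apart in that fit. When replicate 3 of high corn oil was placed in the other diet, by its description, limma called 0 of the 45 and 29 were above 0.

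Over all 148 channel probe sets, tested or not, the groups did not overlap in 24, 11 higher and 13 lower under the high diet, against 7.30% higher and 8.42% lower of all probe sets. Kcn had 3 higher and 8 lower of 82, Cacn 2 and 3 of 26 and Gabr 1 and 1 of 20. Among the 8, only Kcnn1 AF000973_s_at was above 0 on all arrays, and it was too dim for the test. Its values were 274, 204 and 89.7 with high corn oil against 340, 357 and 552 with low corn oil. In Scn 5 of 20 were higher and 1 lower. The higher ones were Scn4a M26643_g_at and M26643_at, Scn8a L39018_at and both probe sets of Scn9a, the sodium channel of pain-sensing neurons. Of these only Scn4a M26643_g_at was bright enough to be tested. Scn8a L39018_at was at 453, 404 and 523 against 286, 153 and 116. Another Scn8a probe set, M27223_at, overlapped, at 108, 604 and 333 against 190, 196 and 169, and AF049239_s_at was below 0 on all arrays. Scn9a AF000368_at was at 82.5, 170 and 97.3 against 40.4, 27.3 and 23.6, and U79568_s_at at 311, 383 and 307 against 287, 189 and 141. The lower one was the third Scn4a probe set, so that the probe sets of this gene separated in opposite directions. With quantile normalization the split over the 148 was 12 higher and 5 lower in place of 11 and 13, with Kcn at 5 and 3, Scn at 4 and 1, Cacn at 2 and 1 and Gabr at 1 and 0. After division of each array by its median it was 12 and 14, with Scn at 6 and 1.

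Channel probe sets below 0 mostly had lower means with high corn oil, and those above 0 mostly higher ones. Of the 28 at or below 0 on all arrays, 26 had a lower mean, where 85.8% of all probe sets at or below 0 on all arrays did. Of the 70 above 0 on all arrays, 62 had a higher mean, where 56.9% of all such probe sets did. Kcnk3 AF031384_at was at -801, -1088 and -1069 with high corn oil against -275, -516 and -207 with low corn oil. Kcnj11 D86039_g_at was at -718, -875 and -1435 against -236, -149 and -43.9. Values below 0 hold no level of RNA, so these separate groups do not describe the genes. The middle 50% of channel values spanned 832 and 950 intensity units on high corn oil replicates 2 and 3, against 445 to 565 on the other 4 arrays. Kcnd3 rc_AI230211_s_at was the 1 member above 0 on all low corn oil arrays (550, 207 and 337) and below 0 on all high ones, while Kcna4 M32867_at was above 0 on all high corn oil arrays (112, 271 and 187) and below 0 on all low ones.

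Genes that work with these channels were measured from fixed lists, with 1 probe set per gene, and 0 passed limma's adjusted test. Of 3 tested genes of GABA synthesis, breakdown and transport 3 were higher (median 0.17), and of 4 for GABA-B receptors and GABA-A anchoring 4 (median 0.13), where Gphn, the anchor gephyrin, was at 1278, 1574 and 1233 against 1208, 1120 and 1171. Gephyrin values were separate by a small gap, with a difference of 0.19 ± 0.19. Of 2 tested chloride cotransporters Slc12a2 was at 0.31 ± 0.23 and Slc12a7 at -1.27 ± 0.98. Of 13 channel partners and calcium release genes 8 were higher and 5 lower (median 0.06), with 2 at an unadjusted p under 0.05 in limma. Those were Abcc9, the sulfonylurea receptor that pairs with Kcnj8, at 1733, 4866 and 4193 against 1424, 1657 and 992 (1.22 ± 0.39), and the membrane anchor Ank3 at 2372, 3247 and 2662 against 1986, 1867 and 1975 (0.46 ± 0.17). Both had separate groups. Over all tested probe sets 53.9% were higher, 9.95% had an unadjusted p under 0.05 in limma and 15.5% had separate groups. No list was tested against these shares.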

How the data were processed

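Each probe set had 1 deposited intensity value per array, not on a log scale, with 18.5% to 23.1% at or below 0. MAS5 is the only tool in the submitters' processing notes, and its settings and any background step are not given in the sources used here. Detection calls were not used here. Arrays were grouped by title: the free-text description of high corn oil replicate 3 names the low diet, and the alternatives include the other reading. Gene names came from the platform annotation, updated through gene identifiers (GRCr8). Values below 0 were set to 0 and transformed as log2(value + 156.1), where 156.1 is the pseudocount, the overall median of 624.5 divided by 4. Probe sets with a mean of at least 343 (40th percentile of 8740, 59 controls left out) entered limma (version 3.58.1, R 4.3.3; lmFit, eBayes with trend, two-sided, Benjamini-Hochberg over 5244), checked on simulated data. Members, lists and settings were chosen with earlier results of these data known. Members were named if tested with separate groups, among the 3 smallest p-values of a family, or among its 3 highest means. Genes singled out beyond that were chosen after their values were seen. Precision is limited by having 3 arrays in each group. Alternatives covered the pseudocount, filter, scaling, intensity trend, blocks and each array left out.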

Additional observations from a re-analysis of the deposited data

How the results depend on the processing

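No channel probe set passed limma's adjusted threshold under the other settings run with all 6 arrays. Leaving out 1 array gave 0 to 3 channel calls and 0 to 214 over all probe sets, and the calls came only without high corn oil replicate 1. With no filter limma called 9 of 8740 probe sets, 0 of them channels. The Scn median, 0.31, was 0.88 with the filter at the 60th percentile (5 probe sets), 0.57 with the spike-in block, 0.60 with 1 probe set per gene and 0.26 to 0.57 with 1 array left out. With 1 array left out the medians ran from 0.12 to 0.51 for Kcn (without low corn oil replicate 2 and high corn oil replicate 1), 0.04 to 0.27 for Cacn (without high and low corn oil replicate 3) and 0.20 to 0.56 for Gabr (without high corn oil replicates 2 and 1). With the label of high corn oil replicate 3 read the other way they were 0.04, -0.04 and 0.20, so that the Cacn median turned. The members with a difference above 0 numbered 38 of 45 with all arrays, 31 with the spike-in block, 29 with high corn oil replicate 3 read as a low one and 33 to 39 with 1 array left out. Of the 148, 42 were above the pseudocount on all arrays and 16 above the median of all values, against 70 above 0. Kcnmb1 AF020712_at was at -0.01 after division by the median, -0.09 with the spike-in block, -0.29 with high corn oil replicate 3 as low and -0.16 to 0.41 with 1 array left out. Cacng1 was at -0.04 with the spike-in block, -0.21 with that replicate as low and -0.08 to 0.32 with 1 array left out, and Scn7a S75991_at at -0.01 with that replicate as low. Leaving out 1 array gave -0.30 to 0.23 for Kcnh3 AJ007627_at and -0.11 to 0.51 for Scnn1b. The cause of these shifts was not tested. The titles name no pairing of same-numbered arrays. Their correlations were -0.05, -0.20 and 0.18, against -0.16 to 0.27 for other pairs, too few values to show whether they share a batch. With the replicate block limma called 0 probe sets, with 554 at an unadjusted p under 0.05 against 522. Intensities near 0 limit what can be said of most channel genes.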
